A study of Mus musculus with 7 samples.

Results

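Small nucleolar RNAs (snoRNAs), small Cajal body RNAs, small nuclear RNAs and snoRNA host genes were followed in muscle satellite cells of dead mice and of old living mice. The members were the genes on the table whose symbol starts with Snord, Snora, Scarna, Rnu or Snhg, or with DQ267 followed by digits, each read from its brightest probe set among those annotated to 1 gene. These were 63 of 13287 named genes, namely 30 Snord, 19 Snora, 3 Scarna, 4 Rnu, 2 DQ267 and 5 Snhg genes, of which 58 are small RNAs.

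The samples were 7 arrays of satellite cells, the stem cells of skeletal muscle. D2PM (2 arrays) and D4PM (3 arrays) held cells from mice dead for 2 and 4 days, aged 8 to 12 weeks by the study's account, and old (2 arrays) held cells from living mice of 24 to 26 months by the sample labels, although the series design text gives weeks. All mice of the 3 groups carried the TgPax7nGFP transgene, in which the Pax7 gene's regulatory sequence drives a nuclear green fluorescent protein, and cells were sorted from limb muscle by fluorescence, size and granulosity. Arrays of young living mice were not analysed here, so time after death and age cannot be told apart in any comparison with old. The sources used here do not state whether the arrays within each group come from different animals, and p-values therefore cover array-to-array spread alone.

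Levels are log2 values from robust multi-array averaging (RMA), in which a difference of 1 is a doubling of signal. Only probe sets whose values varied between arrays are on the table, and a member was tested with limma if its mean was at least 5.12. That left 60 of the 63 members among 9944 genes tested. The 3 others were the dimmest of their kind. Rnu5g, a U5 spliceosomal RNA, stood at 3.97 and 3.96 in D2PM and at 3.85, 3.80 and 3.90 in D4PM, against 3.57 and 3.26 in old. Rnu7, the U7 RNA of histone mRNA end processing, ranged from 3.49 to 4.12 over all arrays. Scarna8 was at 4.52 and 4.69 in D2PM and at 4.69, 4.75 and 4.96 in D4PM, against 4.69 and 4.69 in old.

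As a check of the cell type, all 12 satellite cell markers on the list were tested, and their mean level was 10.08 to 10.17 in D2PM and 10.03 to 10.28 in D4PM, against 9.86 to 10.002 in old. Of these, 5 were higher after death (Calcr, Cd34, Cxcr4, Hey1 and Heyl) and Vcam1 was lower (-0.73 ± 0.13). Myofibre markers were higher after death in 7 of 8 tested. Their list mean, over the 9 on the table, was 8.04 to 8.23 in D2PM and 7.99 to 8.30 in D4PM, against 6.94 to 7.28 in old. Endothelial markers were higher in 9 of 14 (6.81 to 6.83 and 6.80 to 7.40, against 5.84 to 6.47). For comparison with each of these lists, 14.4% of all genes tested were higher and 14.7% lower. Macrophage markers were lower in 1 of 6 tested, fibroadipogenic markers changed in 0 of 6, and of 3 lymphocyte markers on the table (7 listed) 1 was tested, Cd22, which was lower after death (-0.56, adjusted p = 0.011) and higher in D4PM than in D2PM (0.92, adjusted p = 0.042). The part of other cells in the changes below was not tested, and in such bulk RNA fewer cells of a type cannot be told apart from less RNA per cell.

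snoRNAs guide the chemical modification of other RNAs. Box C/D snoRNAs (Snord) direct 2′-O-methylation and box H/ACA snoRNAs (Snora) direct pseudouridylation, mostly of ribosomal RNA, while Scarna RNAs do the same for spliceosomal RNAs in Cajal bodies. Most mammalian snoRNAs are cut out of introns of a host gene, often one that makes a ribosomal protein or a long noncoding RNA (Snhg genes), whereas U3, U8 and most spliceosomal RNAs have their own promoters. A probe set that lies in an intron reads the mature small RNA and the unspliced host transcript alike, and the library protocol amplifies total RNA, so these values do not separate the 2 forms.

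Against old, post-mortem cells (the mean of D2PM and D4PM) had 10 members higher and 10 lower of 60 tested at a Benjamini-Hochberg adjusted p under 0.05 in limma, which is 33.3%, against 29.0% of all genes tested (14.4% higher and 14.7% lower). The median change of the members was -0.07, against 0.00 for all genes. By day, 9 members were higher and 7 lower in D2PM against old (19.4% of all genes tested were called, 10.3% higher and 9.11% lower), and 10 were higher and 12 lower in D4PM against old (27.9% of all genes tested, 12.4% higher and 15.5% lower). Both days are compared with the same old arrays. 8 members were higher and 6 lower on both days of 60 (7.92% and 8.38% of all genes tested), 2 were called on day 2 alone (3.11% of all genes) and 8 on day 4 alone (11.5%), while the difference between the days passed the test for 1 member. All post-mortem arrays lay above both old arrays for 12 of the 60 members and below them for 12, against 22.8% and 23.2% of all genes tested. Without old replicate 2, which leaves a single old array, the members called were 11 after death, 6 in D2PM and 13 in D4PM, where calls over all genes fell to 8.55%, 3.48% and 9.18%. The D2PM count was also lower without old replicate 1 (10, with 12.8% of all genes called), D2PM replicate 1 (7, with 3.28%) or D2PM replicate 2 (10, with 6.17%).

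**Figure D1:**
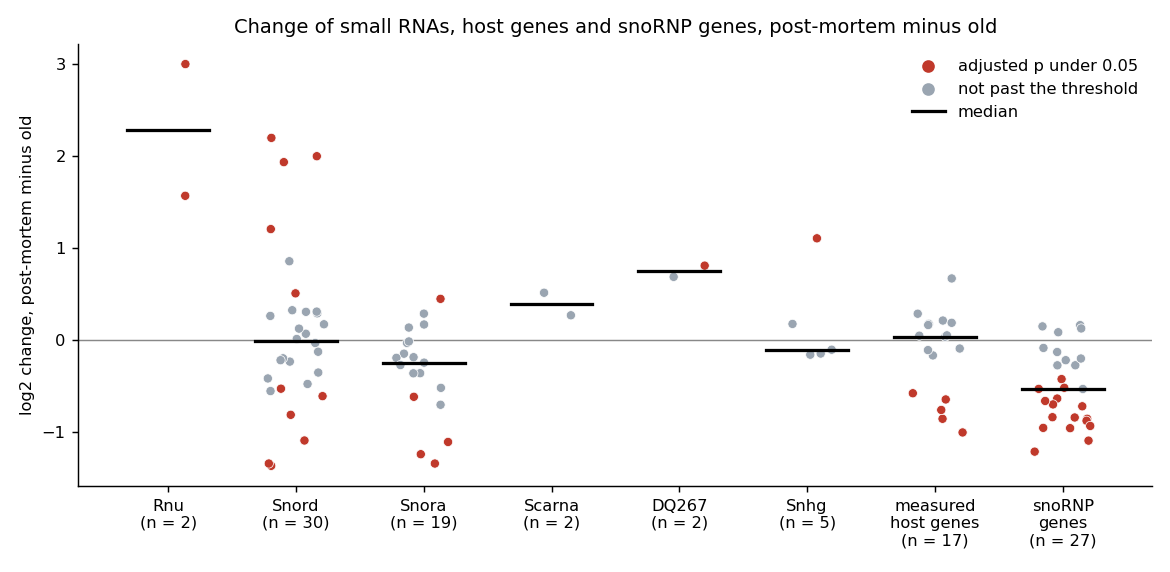
Change of each tested member on the log2 scale, post-mortem minus old (vertical axis), by class, beside the measured host genes and the snoRNP protein genes. Red points have an adjusted p under 0.05 in limma, grey points do not, and bars are medians. Both Rnu genes lie above 0, Snord genes spread to both sides, and 16 of 27 snoRNP genes are red and below 0.

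The change of Rnu3a was the largest of the members tested, and it is among the RNAs that no gene of the RefSeq table spans. Rnu3a, Snord118 and Rnu12 were all higher after death on both days, and the call held in each of 16 alternative fits of post-mortem against old. Over all genes tested, 14.4% were higher post-mortem against old and 7.92% were higher on both days. Rnu7 is the fourth such member and was not tested, and its post-mortem and old arrays overlapped (change -0.15).

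Rnu3a is U3, the box C/D RNA that base-pairs with the pre-ribosomal RNA and is needed to make the small ribosomal subunit. Its level was 8.83 and 8.48 in D2PM and 9.44, 9.27 and 10.16 in D4PM, against 6.15 and 6.13 in old. Every post-mortem array was above both old arrays, and every D4PM array above both D2PM arrays. The difference was 3.00 ± 0.21 (SE; 7.998-fold; adjusted p = 4.63e-06) post-mortem against old, with 2.52 ± 0.25 on day 2 and 3.48 ± 0.22 on day 4. The step between the days, 0.97 ± 0.22, had an unadjusted p of 0.00113 but an adjusted p of 0.208 in limma. Mouse U3 genes are near-identical copies, so the probe set may read more than the named one.

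Snord118 is U8, a box C/D RNA needed in vertebrates to process the large-subunit ribosomal RNAs. It stood at 8.005 and 8.08 in D2PM and at 8.02, 8.11 and 8.22 in D4PM, against 6.32 and 5.96 in old. The post-mortem arrays lay close together and far above old, and its 2 probe sets hold identical values. The change was 1.93 ± 0.13 (SE; 3.82-fold; adjusted p = 4.38e-06), and the days differed by 0.08 ± 0.14.

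Rnu12 is U12, the branch-site RNA of the minor spliceosome. Its values were 7.77 and 7.62 in D2PM and 7.08, 7.34 and 7.42 in D4PM, against 6.28 and 5.55 in old. All post-mortem arrays were above old, by 1.57 ± 0.18 (SE; 2.97-fold; adjusted p = 0.000153). In contrast to Rnu3a, its D4PM arrays were below its D2PM arrays, a difference of -0.42 ± 0.19 that missed the threshold (adjusted p = 0.634).

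Among the 30 Snord genes, all of which were tested, 5 were higher and 6 lower after death (14.4% and 14.7% of all genes tested), with a median change of -0.01 and a range of -1.36 to 2.20. Besides Snord118, described above, Snord61, Snord85, Snord14e and Snord49b were higher.

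Snord61 lies within Rbmx, which encodes an RNA-binding protein of the nucleus. It measured 6.97 and 7.30 in D2PM and 7.60, 7.74 and 6.50 in D4PM, against 4.87 and 5.15 in old. Snord85 had a like spread with 6.93 and 7.17 in D2PM and 7.89, 7.56 and 6.57 in D4PM, against 5.03 and 5.36 in old. For both, the lowest post-mortem array was D4PM replicate 3 and still lay above old. The change of Snord85 was 2.00 ± 0.28 (4.00-fold; adjusted p = 0.000501). Snord61 had an old mean of 5.01, under the minimum of 5.12, and entered the test only through the arrays in which it is high, so its difference of 2.20 ± 0.27 is given as a description, although it is among the members counted as higher.

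Snord14e belongs to the U14 family, which acts in 18S ribosomal RNA processing, and sits in Hspa8, the gene of the constitutive chaperone Hsc70. At 10.65 and 10.84 in D2PM and 11.37, 10.67 and 11.41 in D4PM, against 9.54 and 9.94 in old, it was bright and did not overlap between post-mortem and old arrays. The change was 1.21 ± 0.20 (2.31-fold; adjusted p = 0.00127). Snord49b, within the long noncoding RNA gene 2410006H16Rik, moved less, with 8.24 and 8.10 in D2PM and 8.17, 8.20 and 8.22 in D4PM, against 7.77 and 7.58 in old. Its post-mortem arrays were all higher, by 0.51 ± 0.11 (adjusted p = 0.00679), and the call was lost without old replicate 2.

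**Figure D2:**
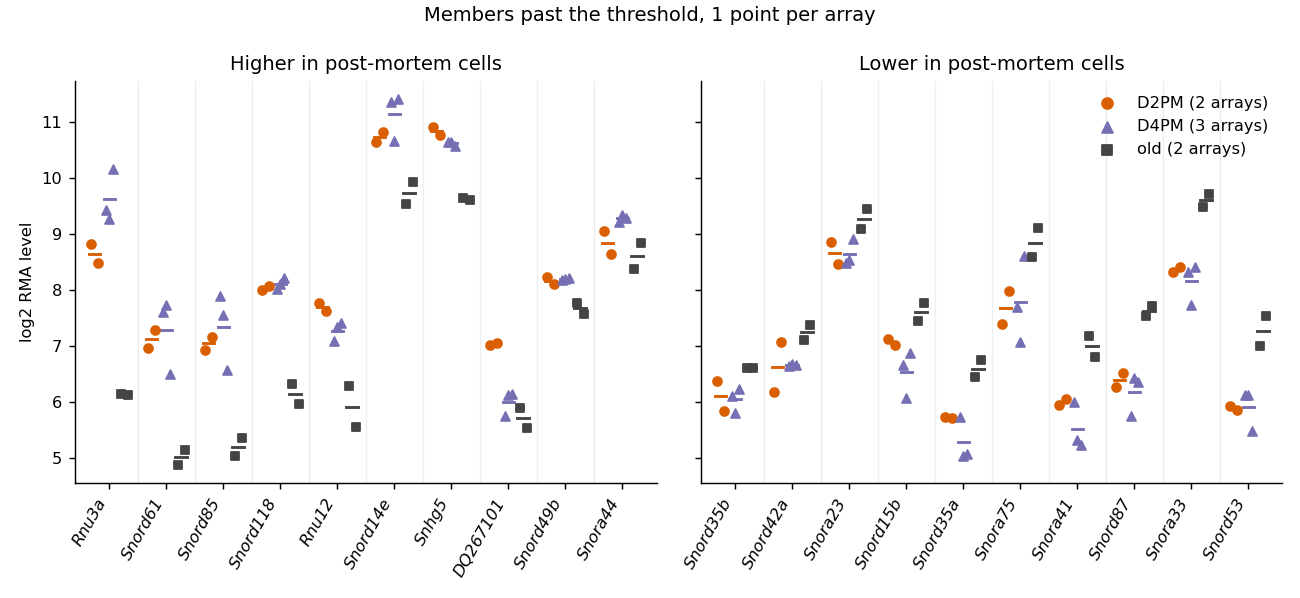
Level of the 20 members past the threshold in post-mortem against old cells, as log2 RMA values (vertical axis), with 1 point per array for D2PM, D4PM and old and bars at group means. On the left, Rnu3a shows the widest gap, 8.48 to 10.16 after death and 6.13 to 6.15 in old. On the right, Snora33 lies at 7.74 to 8.41 after death, against 9.49 to 9.72 in old.

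Of the 6 Snord genes that were lower, 4 lie in ribosomal protein genes. Such genes span 20 of the 58 small RNAs, and no share was computed for Snord genes alone. Snord53, in the ribosome biogenesis gene Wdr43, was at 5.94 and 5.85 in D2PM and at 6.13, 6.13 and 5.48 in D4PM, against 7.002 and 7.53 in old. Snord87, spanned by both Snhg6 and Mcmdc2, was at 6.27 and 6.51 in D2PM and at 5.74, 6.42 and 6.36 in D4PM, against 7.53 and 7.72 in old. Neither overlapped between post-mortem and old arrays, with changes of -1.36 ± 0.19 (adjusted p = 0.000593) and -1.34 ± 0.18 (adjusted p = 0.000392).

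Snord35a, in the ribosomal protein gene Rpl13a, read 5.74 and 5.71 in D2PM and 5.74, 5.04 and 5.08 in D4PM, against 6.44 and 6.75 in old. Snord35b read 6.38 and 5.85 in D2PM and 6.11, 5.81 and 6.22 in D4PM, against 6.61 and 6.61 in old. The post-mortem arrays of both were below old, and the changes were -1.09 ± 0.18 for Snord35a (adjusted p = 0.00146) and -0.53 ± 0.16 for Snord35b (adjusted p = 0.03). Without old replicate 2 neither passed the test, and Snord35b was also lost without old replicate 1 or D2PM replicate 2.

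Snord15b lies in Rps3 and stood at 7.13 and 7.01 in D2PM and at 6.67, 6.07 and 6.87 in D4PM, against 7.45 and 7.78 in old. Snord42a lies in Rpl23a and stood at 6.18 and 7.07 in D2PM and at 6.64, 6.68 and 6.67 in D4PM, against 7.12 and 7.39 in old. Neither overlapped with old, though D2PM replicate 2 of Snord42a came within a small margin of it. Their changes were -0.81 ± 0.19 (adjusted p = 0.00898) and -0.61 ± 0.19 (adjusted p = 0.0363), but the call of Snord15b was lost without old replicate 2 or D2PM replicate 2, and that of Snord42a with estimated array weights and without any 1 array other than D2PM replicate 2.

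The remaining 19 Snord genes did not pass the test and had changes between -0.55 and 0.86. The brightest Snord gene and brightest of all 63 members, Snord104, measured 11.27 and 11.29 in D2PM and 11.73, 11.54 and 11.14 in D4PM, against 11.21 and 11.51 in old. Its groups overlapped. The dimmest, Snord58b in Rpl17, was at 5.85 and 5.72 in D2PM and at 5.69, 5.70 and 5.87 in D4PM, against 5.49 and 5.47 in old. These were non-overlapping but close, with a change of 0.29 ± 0.11 (adjusted p = 0.0765). Snord22, whose RNA U22 acts in 18S processing and whose host is Snhg1, was lower on day 2 (-0.78 ± 0.25, adjusted p = 0.0466) and gave -0.32 ± 0.23 on day 4 (adjusted p = 0.303), and its days were not shown to differ (adjusted p = 0.649). The day 2 call was lost in 7 of 15 alternative fits, among them those without either old array, either D2PM array or D4PM replicate 2. Snord37, in the elongation factor gene Eef2, measured 6.77 and 6.56 in D2PM and 7.22, 6.87 and 6.91 in D4PM, against 6.45 and 6.56 in old. It passed the test on day 4 (0.50 ± 0.14, adjusted p = 0.0246), though not without either old array or D4PM replicate 1, and D2PM replicate 2 was level with the higher old array.

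Of the 19 Snora genes, 1 was higher and 4 were lower after death (14.4% and 14.7% of all genes tested), with a median change of -0.24. A change below 0 was found for 15 of the 19, against 4947 of 9944 genes tested. By day, 0 were higher and 3 lower in D2PM against old (median -0.15; 10.3% and 9.11% of all genes tested), and 1 was higher and 7 lower in D4PM against old (median -0.45; 12.4% and 15.5%). The class median moved with the 2 old arrays: the D4PM value was -0.65 without old replicate 1 and -0.25 without old replicate 2, and the D2PM value was 0.0095 without old replicate 2.

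Snora33, in the ribosomal protein gene Rps12, was at 8.33 and 8.41 in D2PM and at 8.32, 7.74 and 8.41 in D4PM, against 9.49 and 9.72 in old. Snora41, in the elongation factor gene Eef1b2, was at 5.95 and 6.06 in D2PM and at 5.999, 5.32 and 5.23 in D4PM, against 7.19 and 6.81 in old. Both were lower in every post-mortem array, by -1.34 ± 0.17 (adjusted p = 0.000329) and -1.24 ± 0.20 (adjusted p = 0.000993), and kept the call in each alternative fit of post-mortem against old.

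Snora23, in the nuclear import gene Ipo7, had 8.85 and 8.47 in D2PM and 8.49, 8.54 and 8.92 in D4PM, against 9.09 and 9.44 in old. Snora75, in the gene of the nucleolar protein nucleolin (Ncl), had 7.40 and 7.98 in D2PM and 7.70, 7.07 and 8.61 in D4PM, against 8.59 and 9.10 in old. The groups were apart for Snora23 (-0.61 ± 0.16, adjusted p = 0.0157), whereas D4PM replicate 3 of Snora75 lay just above the lower old array (-1.11 ± 0.32, adjusted p = 0.0248). Leaving out old replicate 2 or D2PM replicate 2 ended both calls, and for Snora75 so did leaving out old replicate 1, D2PM replicate 1 or D4PM replicate 1.

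Snora44 was the Snora gene that was higher, at 9.06 and 8.64 in D2PM and 9.21, 9.34 and 9.29 in D4PM, against 8.39 and 8.85 in old. D2PM and old overlapped, the change was 0.45 ± 0.16 with an adjusted p of 0.0488, and 11 of 16 alternative fits lost the call, among them each fit without an old or a D4PM array and that without D2PM replicate 1. The brightest Snora gene, Snora3 in Rpl27a, was at 9.89 and 9.91 in D2PM and at 9.82, 9.31 and 10.01 in D4PM, against 10.05 and 10.60 in old. It lay below both old arrays in each post-mortem array and passed the test on day 4 (-0.61 ± 0.21, adjusted p = 0.0494) but not for both days together (-0.52 ± 0.19, adjusted p = 0.0653). The day 4 call was lost in 8 of 15 alternative fits, among them those without old replicate 2, either D2PM array, or D4PM replicate 1 or 2. The dimmest, Snora16a, measured 5.93 and 5.17 in D2PM and 5.27, 5.21 and 5.08 in D4PM, against 4.95 and 5.21 in old, and its groups overlapped.

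Scarna RNAs did not pass the test. Scarna17, the brightest, was at 10.10 and 10.93 in D2PM and at 10.30, 10.83 and 10.69 in D4PM, against 10.27 and 9.82 in old. Its 2 probe sets hold identical values and its groups overlapped (change 0.52 ± 0.22, adjusted p = 0.101). Scarna13, within Snhg10, gave 0.27 ± 0.17 (adjusted p = 0.265).

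The noncoding RNA gene Rian lies in an imprinted region of chromosome 12 and spans both DQ267 snoRNAs. DQ267101 was at 7.02 and 7.05 in D2PM and at 5.75, 6.13 and 6.15 in D4PM, against 5.89 and 5.53 in old. D2PM stood apart above the other arrays, and D4PM overlapped with old. This was the 1 member that differed between the days, by -1.03 ± 0.16 (D4PM minus D2PM, adjusted p = 0.0347), where 0.191% of all genes tested were called and 0.0302% were lower. Over both days it was 0.81 ± 0.15 higher than in old (adjusted p = 0.00232), a call lost without old replicate 2 and with the 5 post-mortem arrays as 1 group.

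DQ267102 was at 8.98 and 8.76 in D2PM and at 7.70, 8.07 and 8.87 in D4PM, against 8.25 and 7.46 in old, and Rian itself was at 7.62 and 7.55 in D2PM and at 6.70, 7.25 and 7.51 in D4PM, against 7.32 and 6.07 in old. Both had their highest array in D2PM, but D4PM replicate 3 of each was close to it and the old arrays were wide apart. The change between the days of DQ267102 was -0.66 ± 0.30 (adjusted p = 0.634). For DQ267101 the call between the days was lost when any single array was left out and with the post-mortem arrays alone.

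**Figure D3:**
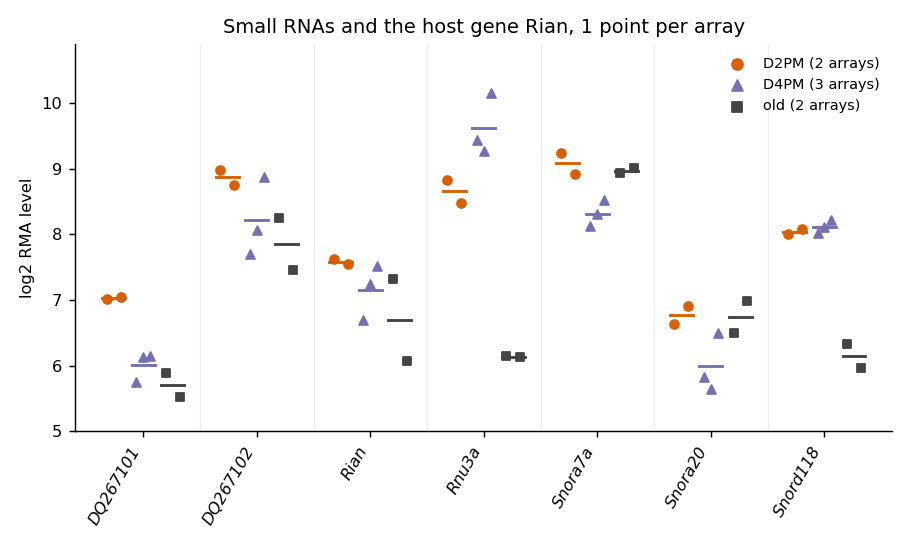
Levels of 6 small RNAs and of the host gene Rian as log2 RMA values (vertical axis), 1 point per array for D2PM, D4PM and old, with bars at group means. DQ267101 stands at 5.75 to 6.15 in D4PM and at 7.02 and 7.05 in D2PM, whereas Rnu3a is highest in D4PM and Snord118 is level between the days.

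Between the days, 10 of 60 members had an unadjusted p under 0.05 (16.7%, against 7.76% of all genes tested), and 8 had all D4PM arrays above D2PM and 9 all below, against 9.69% and 15.6% of all genes tested (25.3% together). After DQ267101, the smallest p was that of Snora7a in Rpl32, followed by Rnu3a. It measured 9.24 and 8.92 in D2PM and 8.12, 8.30 and 8.52 in D4PM, against 8.93 and 9.004 in old. D4PM was below both other groups, and the difference between the days was -0.76 ± 0.15 (unadjusted p = 0.000348, adjusted p = 0.108). Snora20, in the chaperonin gene Tcp1, measured 6.64 and 6.91 in D2PM and 5.82, 5.64 and 6.50 in D4PM, against 6.50 and 6.98 in old, and gave -0.79 ± 0.23 between the days (adjusted p = 0.433). Over the 19 Snora genes 4 were above 0 in D4PM minus D2PM (median -0.18), against 43.4% of all genes tested, while 19 of 30 Snord genes were above 0 (median 0.09).

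Snhg genes are long noncoding RNA genes whose introns hold snoRNAs and whose spliced RNA is often short-lived. All 5 measured ones were tested and 1 passed the test post-mortem against old, where 29.0% of all genes tested were called (14.4% higher). Snhg5 was at 10.92 and 10.78 in D2PM and at 10.65, 10.65 and 10.57 in D4PM, against 9.66 and 9.60 in old. All post-mortem arrays were far above old, by 1.11 ± 0.11 (2.15-fold; adjusted p = 7.12e-05), and the call was kept in each of 16 alternative fits.

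The other Snhg genes had changes between -0.16 and 0.18. Snhg16 had 7.55 and 7.60 in D2PM and 7.40, 7.35 and 7.35 in D4PM, against 7.33 and 7.26 in old. Snhg17 had 7.15 and 7.12 in D2PM and 7.06, 7.14 and 7.10 in D4PM, against 7.07 and 7.46 in old. Snhg16 was just above old in every post-mortem array (0.18 ± 0.11, adjusted p = 0.245) and Snhg17 overlapped with it. Snhg15 had 6.51 and 6.55 in D2PM and 6.75, 6.68 and 6.80 in D4PM, against 6.81 and 6.78 in old. Snhg11, the dimmest, had 5.21 and 5.02 in D2PM and 5.05, 5.30 and 5.23 in D4PM, against 5.25 and 5.26 in old. Both overlapped between post-mortem and old arrays. None of the 5 spans a small RNA on the table, so their own snoRNAs were not compared.

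Many snoRNA host genes begin transcription at a C followed by a run of pyrimidines, the feature of ribosomal protein mRNAs that ties their translation to growth signals. The start regions of the 5 Snhg genes are shown because 1 of them was higher than in old and 4 did not pass the test. Each run holds 30 bases before and 40 after an annotated start in RefSeq GRCm38.p6, written 5′ to 3′ on the transcript's strand, and capitals mark matches to CTTTT or CTTTC and to TATAAA. The places are chr9:88522858-88522927 (minus strand) for Snhg5, chr11:116671630-116671699 (plus) for Snhg16, chr2:158361483-158361552 (minus) for the first of 2 starts of Snhg17, chr11:6528721-6528790 (minus) for Snhg15 and chr2:158375683-158375752 (plus) for Snhg11.
Snhg5: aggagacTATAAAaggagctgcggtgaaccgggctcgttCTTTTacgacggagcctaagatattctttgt
Snhg16: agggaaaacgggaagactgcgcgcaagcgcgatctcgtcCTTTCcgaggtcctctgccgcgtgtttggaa
Snhg17: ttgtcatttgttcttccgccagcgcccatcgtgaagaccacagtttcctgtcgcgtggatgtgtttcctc
Snhg15: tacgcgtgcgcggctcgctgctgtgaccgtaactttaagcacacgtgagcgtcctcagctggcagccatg
Snhg11: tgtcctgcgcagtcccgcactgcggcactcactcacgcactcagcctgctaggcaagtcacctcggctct

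Snhg5 held CTTTT and, before the start, TATAAA, and Snhg16 held CTTTC. Both pyrimidine matches begin at base 10 counted from the annotated start as 1, so neither is at the start itself. The second start of Snhg17 held none of the 3, like its first. On the other strand CTTTT was found in the Snhg5 window, where it overlaps the TATAAA match. Over 32851 promoter windows of the same length, CTTTT was found in 7.54% on the transcript strand (7.91% on the other), CTTTC in 9.07% (8.80%), either of them in 15.5% (15.7%) and TATAAA in 2.16% (1.21%). These are matches of letters and say nothing of binding or use.

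For the 58 small RNAs, the type of gene that spans them was set against their change after death. The 20 within ribosomal protein genes had 0 higher and 5 lower (median -0.21), and the 14 tested within long noncoding RNA genes had 3 higher and 0 lower (median 0.22), against 14.4% higher and 14.7% lower over all genes. The 15 tested within other protein-coding genes had 3 higher and 4 lower (median -0.36). The 3 include Snord61, whose change is given as a description only. The 3 tested with no spanning gene were the RNAs described above, with a median of 1.93, and 3 with several spanning genes had 0 higher and 1 lower.

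In 21 pairs a small RNA and its only spanning gene were both on the table. The 17 hosts in them had 0 higher and 5 lower (29.4% called, median 0.04), against 29.0% of all genes tested. The 5 were Ipo7, Ncl, Nop56, Srcap and Wdr43. In 3 pairs both members were lower (Snora23 with Ipo7, Snora75 with Ncl, Snord53 with Wdr43). In 6 the small RNA alone passed the test, in 3 the host alone and in 8 neither. The 6 include Snord61, which entered the test only through the arrays in which it is high. In 0 pairs were both called in opposite directions. The last pair held Scarna8, which was not tested.

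Wdr43 measured 9.30 and 9.22 in D2PM and 8.98, 8.94 and 9.01 in D4PM, against 9.94 and 10.30 in old. Its change of -1.002 ± 0.13 (SE) stood beside -1.36 for Snord53, and the small RNA minus host value overlapped between post-mortem and old arrays. Ipo7 measured 8.69 and 8.60 in D2PM and 8.36, 8.46 and 8.13 in D4PM, against 8.95 and 9.16 in old. Its change was -0.58 ± 0.13 and that of Snora23 -0.61, a difference of -0.04.

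The hosts of Snord61, Snord14e, Snora33 and Snora41 did not pass the test. Rbmx was at 7.82 and 7.71 in D2PM and at 7.82, 7.55 and 7.91 in D4PM, against 7.93 and 7.81 in old. Hspa8 was at 12.72 and 12.76 in D2PM and at 12.76, 12.83 and 12.71 in D4PM, against 12.47 and 12.62 in old. Their changes were -0.11 ± 0.13 (adjusted p = 0.553) and 0.21 ± 0.11 (adjusted p = 0.177), and the small RNA minus host value differed by 2.31 for Snord61 and by 0.99 for Snord14e. Rps12 was at 12.63 and 12.60 in D2PM and at 12.46, 12.57 and 12.54 in D4PM, against 12.42 and 12.36 in old. Eef1b2 was at 11.47 and 11.36 in D2PM and at 11.34, 11.34 and 11.36 in D4PM, against 11.62 and 11.07 in old. Their changes were 0.18 ± 0.11 and 0.04 ± 0.15, and the small RNA minus host value differed by -1.52 for Snora33 and by -1.28 for Snora41.

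In all, the small RNA minus host value did not overlap between post-mortem and old arrays in 9 of 21 pairs, 5 above and 4 below, where 46.0% of single genes tested did not overlap (22.8% above and 23.2% below). Besides those named, the pairs were Snord37 with Eef2 (0.49), Snord57 with Nop56 (0.66) and Snord82 with Ncl (0.52) above, and Snora3 with Rpl27a (-0.81) and Snord15b with Rps3 (-0.9995) below. In 8 pairs the exact two-sided permutation test over arrays gave p = 0.0476, the smallest that 21 splits allow, and after adjustment over the pairs the smallest p was 0.125, so 0 pairs passed. The side of a pair in this count is a description of these 7 arrays. The share given is for levels of single genes, and none was computed for differences between genes.

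**Figure D4:**
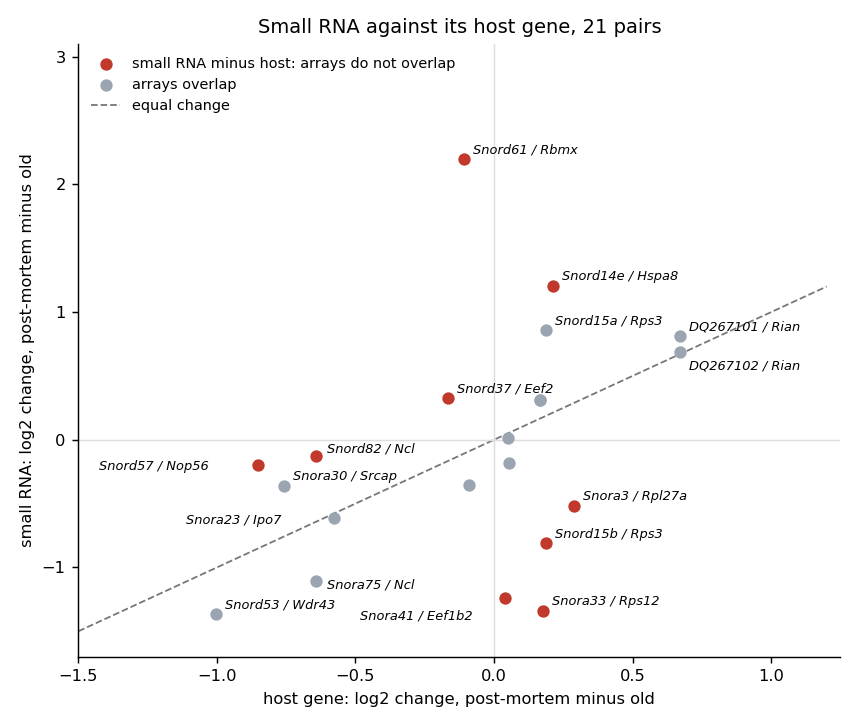
Change of a small RNA (vertical axis) against the change of its host gene (horizontal axis), both post-mortem minus old on the log2 scale, for 21 pairs. The dashed line marks equal change, and red points are the 9 pairs whose small RNA minus host values do not overlap between post-mortem and old arrays. Snord61 lies farthest above the line (2.20 beside -0.11 for Rbmx) and Snora33 farthest below (-1.34 beside 0.18 for Rps12).

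Small RNAs from the same host gene were compared with each other in 10 hosts with 2 tested members each. In 6 hosts both changes had the same sign and in 4 they did not. In 4 the difference between the members parted post-mortem from old arrays. Levels of single genes did so in 46.0% of those tested, and no share was computed for differences between genes. In Rpl13a, Snord33 stood at 6.98 and 7.42 in D2PM and at 7.83, 7.45 and 7.08 in D4PM, against 7.06 and 7.25 in old. It overlapped with old, unlike Snord35a, and the pair's difference changed by 1.26 (exact permutation p = 0.0476, the smallest possible).

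In Rps3, Snord15a stood at 5.39 and 6.40 in D2PM and at 7.55, 6.37 and 4.96 in D4PM, against 5.14 and 5.33 in old. Its post-mortem arrays were scattered over both sides of old, and its change of 0.86 ± 0.50 (adjusted p = 0.228) stood beside -0.81 for Snord15b. Rps3 itself had 12.01 and 11.97 in D2PM and 11.97, 11.97 and 11.98 in D4PM, against 11.90 and 11.68 in old, a change of 0.19 ± 0.11 (adjusted p = 0.237). In Ncl, Snord82 had 8.40 and 8.18 in D2PM and 8.45, 8.60 and 8.79 in D4PM, against 8.73 and 8.43 in old. Its groups overlapped (-0.13 ± 0.14), while Ncl had 10.92 and 11.02 in D2PM and 11.02, 10.80 and 10.93 in D4PM, against 11.57 and 11.60 in old, a change of -0.64 ± 0.11 (adjusted p = 0.002).

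In 2410006H16Rik, Snord49a gave -0.23 ± 0.17 beside 0.51 for Snord49b, and their difference was -0.74 (exact permutation p = 0.0952). Both snoRNAs of Rps3a1, Snord73a and Snord73b, gave 0.31, and both of Rack1, Snord95 and Snord96a, gave values below 0 (-0.48 and -0.42). Of the 6 changes in these 3 hosts, that of Snord49b passed the test.

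**Figure D5:**
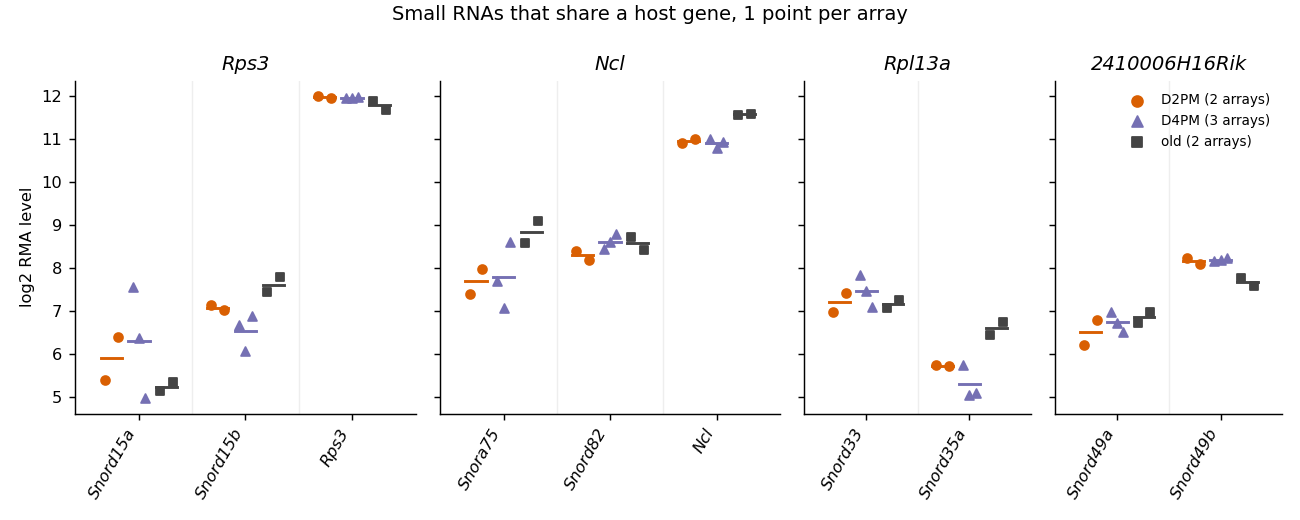
Levels as log2 RMA values (vertical axis), 1 point per array for D2PM, D4PM and old with bars at group means, of small RNAs that share a host gene (panel titles), with the host itself where it is on the table. Within Rpl13a, Snord35a lies at 5.04 to 5.74 after death and 6.44 to 6.75 in old while Snord33 overlaps, and within Ncl the host and Snora75 are lower after death and Snord82 overlaps.

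The proteins that snoRNAs work with were read from the same fit. Of 27 tested genes of snoRNP cores and their assembly (29 listed), 0 were higher and 16 were lower after death (59.3%), with a median of -0.53, against 14.4% higher and 14.7% lower over all genes tested, and the list mean was 7.97 to 8.01 in D2PM and 7.81 to 7.87 in D4PM, against 8.31 to 8.56 in old. These included the box C/D proteins fibrillarin, the methyltransferase (Fbl, -0.84 ± 0.11, adjusted p = 0.00037), Nop58 (-0.87 ± 0.12, adjusted p = 0.00044) and Nop56 (-0.85 ± 0.16, adjusted p = 0.0023). They also included the H/ACA proteins dyskerin, the pseudouridine synthase (Dkc1, -0.95 ± 0.14, adjusted p = 0.00067), Gar1 (-0.72 ± 0.13, adjusted p = 0.0022) and Nhp2 (-0.63 ± 0.14, adjusted p = 0.0071). The genes of U3-associated proteins, Rrp9 and Mphosph10, gave -0.93 ± 0.17 (adjusted p = 0.0022) and -1.09 ± 0.16 (adjusted p = 0.00074), beside the 3.00 of Rnu3a.

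The snoRNP chaperone gene Nolc1 had the most negative change in that list (-1.21 ± 0.13, adjusted p = 0.00011). The H/ACA core gene Nop10 gave 0.09 ± 0.12 and the shared C/D protein gene Snu13 gave -0.27 ± 0.14, neither past the threshold. Nop56 is both a core protein and the host of Snord57, which had 7.96 and 8.09 in D2PM and 8.60, 8.27 and 8.17 in D4PM, against 8.30 and 8.46 in old, so that the host changed and its snoRNA overlapped between the groups.

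Genes of RNA end trimming and decay, mainly the nuclear exosome, had 0 higher and 6 lower of 13 tested (15 listed, median -0.46; 14.4% and 14.7% of all genes tested, also for the next lists), with the catalytic subunits Dis3 at -1.08 ± 0.11 and Exosc10 at -0.53 ± 0.12. Genes of nonsense-mediated decay, a pathway that degrades many spliced Snhg RNAs, had 0 higher and 3 lower of 6 tested (10 listed, median -0.30): Smg1 (-0.89), Upf1 (-0.56) and Smg5 (-0.42). Genes of small nuclear RNA transcription and end processing had 0 higher and 3 lower of 15 tested (19 listed, median -0.16), among them Snapc4 and the export adaptor gene Phax (-0.44 ± 0.14). Between D4PM and D2PM 0 genes of these 4 lists passed the test in limma.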

How the data were processed

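By the study's account, total RNA of sorted cells was extracted with the RNeasy Micro kit and amplified (Ovation Pico). It was hybridised to GeneChip Mouse Gene 1.0 ST arrays. Members had a median length of 69.5 bases (Snord) and 128 bases (Snora). How far RNAs this short were recovered was not tested. The values are log2 expression, deposited by the authors after RMA (background correction, quantile normalisation and probe summary); the genome build is not given in the sources used here. Probe sets that were not expressed or did not vary had been removed, and no standard deviation over the arrays was below 0.0914. Of 60 members tested, 13 held exactly the same value on more than 1 array (21.7%), against 38.8% of all genes tested. Snord35a, Snord53 and Snora33 are among them. The effect of such repeats on the spread was not tested. Of 18675 probe sets, 14480 were annotated to 1 gene, 774 to several (not used) and 3421 were unnamed here. limma 3.58.1 (R 4.3.3) fitted 3 group means to all 7 arrays, for genes with a mean at or above the 25th percentile of named probe sets, with 4 residual degrees of freedom and Benjamini-Hochberg adjustment over 9944 genes. The number of arrays limits the precision.

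All 63 members matched the RefSeq table (GRCm38.p6), used for names, spans and sequences. The host of a small RNA was the gene spanning it. The table gives no strand for small RNAs, so strand was not required, although the plan asked for it. Of 58 small RNAs, 54 had such a gene, measured for 24. Small RNA minus host values were compared by exact permutation over arrays. In 8 members with several probe sets the brightest was used. Array values are given for every member past the threshold in post-mortem against old or between the days, for the Snhg genes, for the brightest and dimmest of each class and for described hosts. Snord22, Snord37, Snora7a, Snora20, Snord33, Snord15a, Snord57 and Snord82 were added after their values were seen. The members, gene lists and tests were chosen with earlier results of these data known. The fit was tested on simulated data. Alternatives changed the normalisation, filter, probe set, variance prior, array weights and grouping, added the replicate number as a block, or left out each array in turn.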

Additional observations from a re-analysis of the deposited data

Results flagged for a closer look

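DQ267101, a snoRNA within Rian, was singled out because its levels 2 and 4 days after death differed by the test of the difference itself. It changed by 0.30 ± 0.16 in D4PM against old and by 1.32 ± 0.18 in D2PM against old, and the difference between the days was -1.03 ± 0.16 (adjusted p = 0.0347 in limma). The adjusted p for it ranged between 0.00675 and 0.898 over 15 alternative fits, 8 of which lost the call. Groups of 2 or 3 arrays were too small to look for single arrays far from the rest.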

How the results depend on the processing

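No called value changed sign. The 20 members called after death were 11 to 23 with 1 array left out, and 15 to 25 in 9 other fits. D2PM against old gave 16, with 6 to 18 on leaving out an array (6 without old replicate 2, 7 without D2PM replicate 1, 10 without old replicate 1 and without D2PM replicate 2), and D4PM against old gave 22, with 13 to 25 (13 without old replicate 2). D4PM against D2PM gave 1, and 0 with any array left out, with the filter at the 50th percentile (which leaves DQ267101 out) and with the post-mortem arrays alone. Where a lone array remained, it was assumed to vary like the other groups. The median over Snord genes was -0.13 in D2PM against old (-0.16 to 0.015, the high end without old replicate 2). For Snora genes it was -0.15 (-0.24 to 0.0095) in D2PM and -0.45 (-0.65 to -0.25) in D4PM against old. Small RNA minus host values parted in 9 pairs, 9 to 13 with an array left out, and 10 when small RNAs with several spanning genes were counted too, an alternative chosen after seeing the data. Deviations from the group mean in arrays with the same replicate number had correlations of -0.08 to 0.05. In a group of 2 arrays the deviations mirror each other, so few of these values are independent. Whether arrays with the same number share an animal or a batch was not tested. With the replicate number as a block, 3 members passed between the days, against 1 without it. Over all 9944 genes tested, 54 passed with the block and 19 without it. The other member counts stayed within 1.5 times.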
